A study of Arabidopsis thaliana with 6 samples.

Results

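The genes APS4, BGLU28, JAL23 and BCAT4 of Arabidopsis thaliana are grouped here under the uptake of sulfur into organic compounds and under glucosinolates. Glucosinolates are the sulfur-rich defence compounds of the cabbage family. JAL23, a lectin gene, is listed here only with genes of endoplasmic reticulum bodies. The 4 genes are among 13356 that a probe set of their own measured in this series, with 1 probe set each. The 4 were chosen by their values in the comparison of the pkl-1 mutant with wild type, so their differences are given as a description and carry no test. Whole seedlings aged 14 days were profiled on Affymetrix arrays, 3 from the pkl-1 mutant and 3 from wild-type plants (Col-0). Both genotypes were raised under continuous light on half-strength Murashige and Skoog medium and received no treatment. The mutant, represented by 1 allele only, carries a defect in PICKLE (PKL), a CHD3-type ATPase that remodels nucleosomes.

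Plants take up sulfate, and ATP sulfurylase activates it with ATP to adenosine phosphosulfate. This is then reduced, through sulfite and sulfide, to cysteine, or phosphorylated to the sulfate donor used in glucosinolate synthesis. Aliphatic glucosinolates start from methionine, whose side chain is lengthened before the core structure is built. Intact glucosinolates are cleaved by myrosinases, which are beta-glucosidases, and some beta-glucosidases are known to release their sulfur when sulfate is short. In Brassicaceae, endoplasmic reticulum (ER) bodies store the beta-glucosidase PYK10, which forms complexes with jacalin-related lectins in broken tissue.

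The values were log2 signals made with GCRMA, which corrects each probe for background and normalizes the arrays to one another. Array medians ran from 5.03 to 5.13 log2 units, and arrays correlated across probe sets at 0.985 to 0.9937 where they shared a genotype and at 0.9751 to 0.9892 where they did not. Of the other genes, those with an adjusted p under 0.05 in a limma fit over all 22746 probe sets are called rose or fell. That fit called 2.37% of all probe sets (1.06% as higher and 1.31% as lower in pkl-1), and 2.01% of those paired with 1 gene. The 3 pkl-1 arrays lay entirely above the wild-type arrays in 10.6% of probe sets and entirely below in 10.4%, together 21.0%. The seedling label was set against organ markers. Of 10 leaf genes 2 were measured and both were bright. Of 9 root genes 3 were measured, of which PYK10 was bright and EXPA7 and EXPA18 were far dimmer. The only 1 measured of 10 flower, pollen and seed genes was OLEO3 of seed oil bodies. Its wild-type and pkl-1 means were 2.09 ± 0.10 and 2.21 ± 0.42 (SD, n = 3 each). The probe set of PKL is unnamed here, so the genotype labels were not checked against it.

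APS4 (AT5G43780, chromosome 5), which encodes an isoform of ATP sulfurylase and is a known target of the microRNA miR395, was higher in pkl-1. Its levels in wild type were 8.59, 8.35 and 8.31 log2 units in replicates 1, 2 and 3. In pkl-1 they were 9.61, 9.39 and 9.30. The groups did not overlap, and the lowest pkl-1 array lay 0.71 log2 units above the highest wild-type array. The means were 8.42 ± 0.15 and 9.44 ± 0.16 (SD, n = 3 each), a difference of 1.02 ± 0.12 log2 units (SE), or 2.03-fold. Of all 22746 probe sets, 97.58% had a smaller difference in either direction.

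BGLU28 (AT2G44460, chromosome 2), a beta-glucosidase known for its strong induction by sulfur deficiency, was higher in pkl-1 as well. Wild-type levels were 2.82, 2.80 and 3.04 log2 units in replicates 1, 2 and 3, with little spread. The pkl-1 levels were 4.99, 4.28 and 5.18. All pkl-1 arrays lay at least 1.24 log2 units above the wild-type arrays, and pkl-1 replicate 2 was the lowest of the 3. The difference of the means, 4.81 ± 0.48 against 2.89 ± 0.13 (SD, n = 3 each), was 1.93 ± 0.26 log2 units (SE), or 3.80-fold. Only 34.0% of probe sets had a wild-type mean below that of BGLU28, so this fold started in the dim part of the signal, where it depends on the background that GCRMA estimated.

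JAL23 (AT2G39330, chromosome 2), a jacalin-related lectin, differed most of the 4. Wild-type levels were 4.35, 5.34 and 4.91 log2 units in replicates 1, 2 and 3. In pkl-1 the levels were 7.36, 6.86 and 7.39. No arrays overlapped, and the gap between the groups was 1.52 log2 units. The wild-type mean was 4.86 ± 0.50 and the pkl-1 mean 7.20 ± 0.30 (SD, n = 3 each), which is 2.34 ± 0.27 log2 units (SE) or 5.07-fold. Of the 9 differences between a pkl-1 and a wild-type array, the smallest was 1.52 and the largest 3.04, the widest span of the 4 genes. Among all 22746 probe sets JAL23 had the 23rd largest positive difference, BGLU28 the 42nd and APS4 the 233rd.

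BCAT4 (AT3G19710, chromosome 3) encodes the methionine aminotransferase that opens the chain elongation of aliphatic glucosinolate synthesis, and its groups overlapped. Wild-type levels were 10.43, 10.27 and 9.98 log2 units in replicates 1, 2 and 3, and the pkl-1 levels were 10.54, 10.24 and 10.08. The lowest arrays of the genotypes and the highest were close to each other. The difference was 0.06 ± 0.15 log2 units (SE), between means of 10.23 ± 0.23 and 10.29 ± 0.23 (SD, n = 3 each). The 9 differences between single arrays ran from -0.35 to 0.56.

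**Figure D1:**
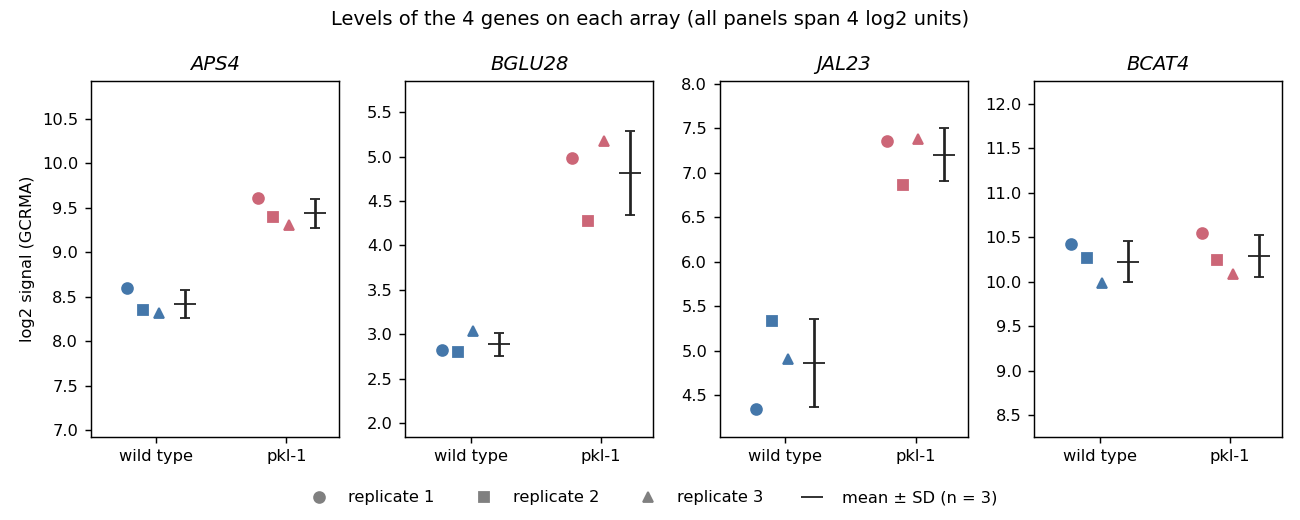
Log2 signal of APS4, BGLU28, JAL23 and BCAT4 on each array, wild type in blue and pkl-1 in red, with the symbol giving the replicate number and the bar the mean ± SD of 3 arrays. For APS4, BGLU28 and JAL23 every pkl-1 array lies above every wild-type array, by at least 0.71, 1.24 and 1.52 log2 units, while the BCAT4 arrays overlap.

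The spread within a genotype had the same form in APS4 and BCAT4 and another in JAL23 and in BGLU28. BCAT4 was highest in replicate 1 and lowest in replicate 3 in both genotypes, with deviations from the genotype mean of 0.20 and -0.24 in wild type and 0.25 and -0.21 in pkl-1. APS4 had the same order, with deviations of 0.18 and -0.11 in wild type and 0.18 and -0.13 in pkl-1. In JAL23 the same-numbered arrays of replicates 1 and 2 deviated in opposite directions. Replicate 1 lay at -0.52 in wild type and 0.16 in pkl-1, and replicate 2 at 0.47 and -0.34. In BGLU28 the lowest array was replicate 2 in both genotypes, but it deviated by -0.08 among wild-type and by -0.54 among pkl-1 arrays. Over all probe sets the median SD was 0.171 among wild-type arrays and 0.163 among pkl-1 arrays, so APS4 varied about as much as a typical probe set. JAL23 varied more in wild type, where 93.02% of probe sets had a smaller SD, and BGLU28 more in pkl-1, where 93.74% did.

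**Figure D2:**
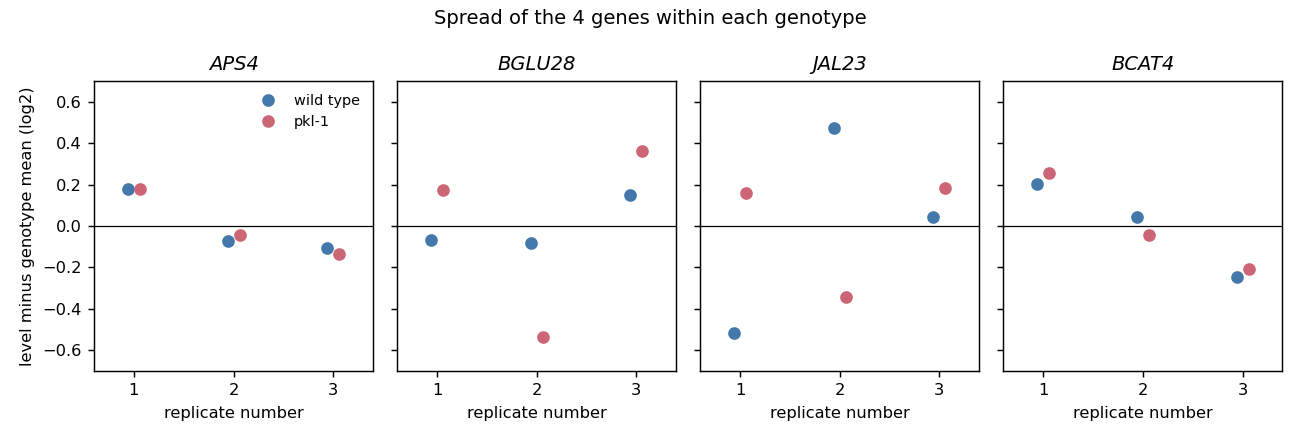
Level of each of the 4 genes on each array minus the mean of its genotype, in log2 units, by replicate number, with wild type in blue and pkl-1 in red. Same-numbered arrays lie close together for APS4 and BCAT4, and on opposite sides of 0 for JAL23 in replicates 1 and 2.

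Genes of the same pathways were read from 9 lists of 141 genes, of which 21 were measured by a named probe set, the 4 genes above included. None of the 12 sulfate transporters and none of the 7 glucosinolate regulators were measured. Of the other 17 measured genes 1 rose, 0 fell and 16 did not pass, against the 2.01% called among probe sets paired with 1 gene. At an unadjusted limma p under 0.05 there were 5, where 14.89% of all probe sets passed. Their median log2 change was 0.17, against 0.01 over all probe sets. Changes were positive in 12 of the 17, where 52.46% of all probe sets had a positive change. The arrays of the genotypes did not overlap in 6 of the 17, beside 21.0% of all probe sets.

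The gene that rose, AT2G25450, belongs to the list of aliphatic glucosinolate synthesis, and the gene table gives it no symbol. Its levels were 10.78, 10.66 and 10.71 log2 units in wild type and 11.33, 11.33 and 11.35 in pkl-1. The pkl-1 arrays were nearly level with one another, and none came near a wild-type array. The rise was 0.62 ± 0.07 log2 units (SE), or 1.54-fold (limma adjusted p = 0.00628). The other 3 measured genes of that list did not pass. GSTU20, a glutathione transferase assigned to the conjugation step of the aliphatic pathway, was at 0.17 ± 0.11 (adjusted p = 0.540), and AT2G31790 was at -0.48 ± 0.22 (0.382), both in the same limma fit. BCAT4 and 4 other genes thus covered 5 of the 28 genes of the list, and their differences ran in both directions.

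In the list of sulfate activation and reduction, 2 genes were measured besides APS4. Neither passed, where the fit called 2.01% of probe sets with 1 gene. Both changes were positive, as were 52.46% over all probe sets. Both genes had an unadjusted limma p under 0.05, beside 14.89% of all probe sets. In both the arrays did not overlap, beside 21.0%. APS3, the paralog of APS4 and likewise an ATP sulfurylase, had levels of 8.19, 8.68 and 8.91 log2 units in wild type and 8.97, 9.02 and 10.23 in pkl-1. The groups did not overlap but were only narrowly apart, and pkl-1 replicate 3 stood far above the others. The difference was 0.82 ± 0.34 (SE; limma adjusted p = 0.315), and without pkl-1 replicate 3 it was 0.41. SIR, the sulfite reductase that makes sulfide, was at 0.31 ± 0.08 (limma adjusted p = 0.117), again with all pkl-1 arrays above all wild-type arrays. APS1 and APS2, the other ATP sulfurylase genes, were not measured by a named probe set.

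Apart from the ER body genes, the remaining lists with any gene measured had 1 or 2. Leaving out BGLU28, none of these genes passed, where the fit called 2.01% of probe sets with 1 gene. Their changes were all positive, where 52.46% of all probe sets had a positive change. AT1G04770 of the sulfur-deficiency list, in which BGLU28 was the only other gene measured, was at 0.55 ± 0.36 log2 units (SE; limma adjusted p = 0.543), with overlapping groups. CBL, the cystathionine beta-lyase of methionine synthesis, was at 0.02 ± 0.09 (limma adjusted p = 0.940). UGT74B1, a glucosyltransferase that makes the desulfoglucosinolate, to which sulfate is then added, was at 0.24 ± 0.21 (limma adjusted p = 0.670). The glucosinolate importers GTR1 and GTR2 were at 0.47 ± 0.36 and 0.25 ± 0.10 (limma adjusted p = 0.611 and 0.323). Leaving out BGLU28, only GTR2 in these lists had an unadjusted limma p under 0.05, beside 14.89% of all probe sets. Its groups alone did not overlap, beside 21.0%. GTR1 levels were 8.15, 8.58 and 9.40 in wild type and 8.67, 9.10 and 9.78 in pkl-1. Replicate 1 was lowest and replicate 3 highest in both genotypes, and the groups overlapped.

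Of the 7 measured ER body genes JAL23 was one, and none of the other 6 passed, where the fit called 2.01% of probe sets with 1 gene. Their changes ran from -0.23 to 0.21 log2 units, with a median of 0.00 and 3 in each direction. At an unadjusted limma p under 0.05 there was 1, beside 14.89% of all probe sets, and the arrays did not overlap in 2, beside 21.0%. PYK10, the main beta-glucosidase of ER bodies and a gene expressed mostly in roots, had a wild-type mean of 11.95 ± 0.16 and a pkl-1 mean of 11.96 ± 0.11 (SD, n = 3 each). Its difference was 0.02 ± 0.09 (SE; limma adjusted p = 0.959). The lectin gene JAL34 was at -0.23 ± 0.09 (limma adjusted p = 0.275), with all pkl-1 arrays below all wild-type arrays.

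A further list of 15 measured genes covered the turnover of thiols and methionine, from cysteine desulfurases to methionine sulfoxide reductases, and was added once the coverage of the other lists was known. Of these 1 fell, 0 rose and 14 did not pass, against the 2.01% called among probe sets paired with 1 gene. At an unadjusted limma p under 0.05 there were 4, beside 14.89% of all probe sets, and the arrays did not overlap in 4, beside 21.0%. Changes were positive in 3 and negative in 12, with a median of -0.13 log2 units, where 52.46% of all probe sets had a positive change. MSRB9, a methionine sulfoxide reductase, which repairs oxidised methionine, had levels of 8.79, 8.57 and 8.73 in wild type and 7.14, 7.25 and 7.83 in pkl-1. The pkl-1 arrays were all lower, with replicate 3 nearest to wild type. It fell by 1.29 ± 0.19 log2 units (SE; limma adjusted p = 0.0171). The call was lost without pkl-1 replicate 1 (0.0524) or 2 (0.0957) and without wild type replicate 2 (0.0651) or 3 (0.0535), all limma adjusted p. SAMDC, the S-adenosylmethionine decarboxylase of polyamine synthesis, was at -0.08 ± 0.08 and the glutathione reductase GR at -0.11 ± 0.08 (limma adjusted p = 0.723 and 0.613).

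**Figure D3:**
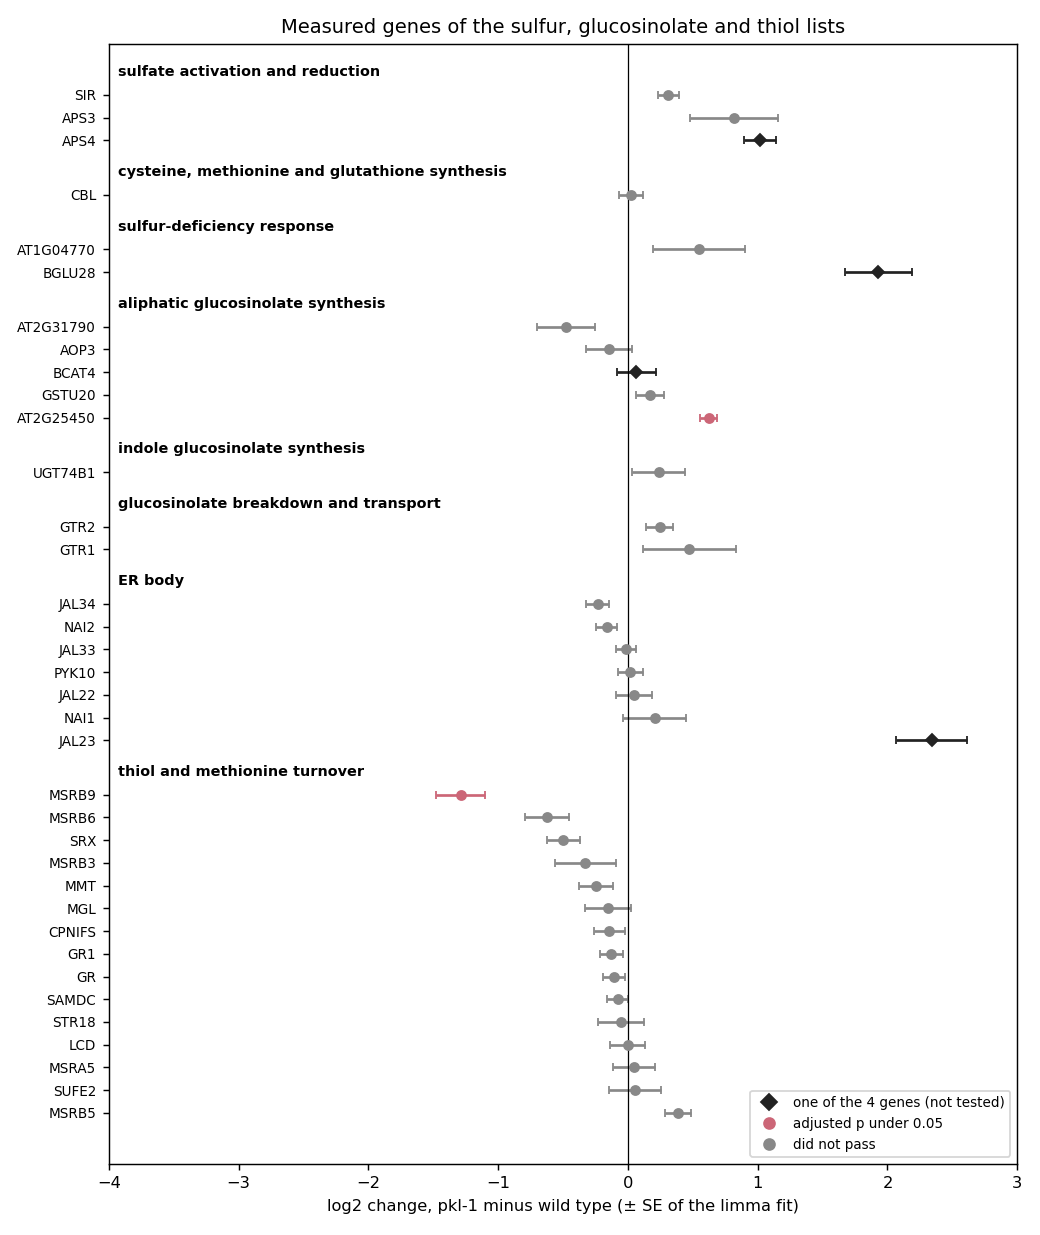
Log2 change, pkl-1 minus wild type, with its standard error, of every measured gene of the 9 sulfur and glucosinolate lists and of the added list of thiol and methionine turnover. Black diamonds are APS4, BGLU28, JAL23 and BCAT4, red circles genes with a limma adjusted p under 0.05 (AT2G25450 at 0.62 and, in the added list, MSRB9 at -1.29), and grey circles genes that did not pass.

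The families of the 4 genes were read by symbol. Besides BGLU28, 21 of 47 BGLU genes were measured, of which 1 rose, 1 fell and 19 did not pass, where the fit called 2.01% of probe sets with 1 gene. Their median log2 change was -0.01, and 11 of the 21 changes were negative. At an unadjusted limma p under 0.05 there were 7, beside 14.89% of all probe sets, and the arrays did not overlap in 7, beside 21.0%. Of the genes without overlap only BGLU44 was higher in pkl-1. BGLU45 and ATA27, among those lower, were dim, with wild-type means of 2.59 and 2.04 log2 units. BGLU44 had levels of 10.58, 10.44 and 10.32 in wild type and 11.35, 11.22 and 10.86 in pkl-1, a rise of 0.70 ± 0.13 log2 units (SE; limma adjusted p = 0.0435). BGLU40 had levels of 8.55, 8.45 and 8.45 in wild type and 7.81, 7.76 and 7.21 in pkl-1, a fall by 0.89 ± 0.17 (SE; limma adjusted p = 0.0410). Neither gene's groups overlapped, and pkl-1 replicate 3 was the lowest of the pkl-1 arrays in both. The call of BGLU40 was lost without any 1 of the 6 arrays (limma adjusted p 0.0544 to 0.136), and that of BGLU44 without any but pkl-1 replicate 3 (0.0595 to 0.183). Both calls were also lost with no trend in the prior (0.0589 for BGLU40 and 0.0893 for BGLU44). BGLU33, next to PYK10 and BGLU44 in mean signal over the 6 arrays, was at -0.03 ± 0.12 (limma adjusted p = 0.943).

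Of 7 JAL genes by symbol 4 were measured. The 3 besides JAL23 did not pass, where the fit called 2.01% of probe sets with 1 gene. At an unadjusted limma p under 0.05 there was 1, JAL34 at -0.23 ± 0.09 log2 units (SE), beside 14.89% of all probe sets. JAL34 was also the only 1 of the 3 without overlap, beside 21.0%, and its pkl-1 arrays were all lower. JAL22, whose gene lies close to that of JAL23, had levels of 9.06, 8.78 and 8.79 in wild type and 9.04, 9.05 and 8.68 in pkl-1, with overlapping groups. Its difference was 0.05 ± 0.14 log2 units (SE; limma adjusted p = 0.918), and that of JAL33 was -0.02 ± 0.08 (0.951). Of 6 BCAT genes the only one measured besides BCAT4 was ATBCAT-5, a branched-chain aminotransferase, at -0.07 ± 0.12 (limma adjusted p = 0.841).

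**Figure D4:**
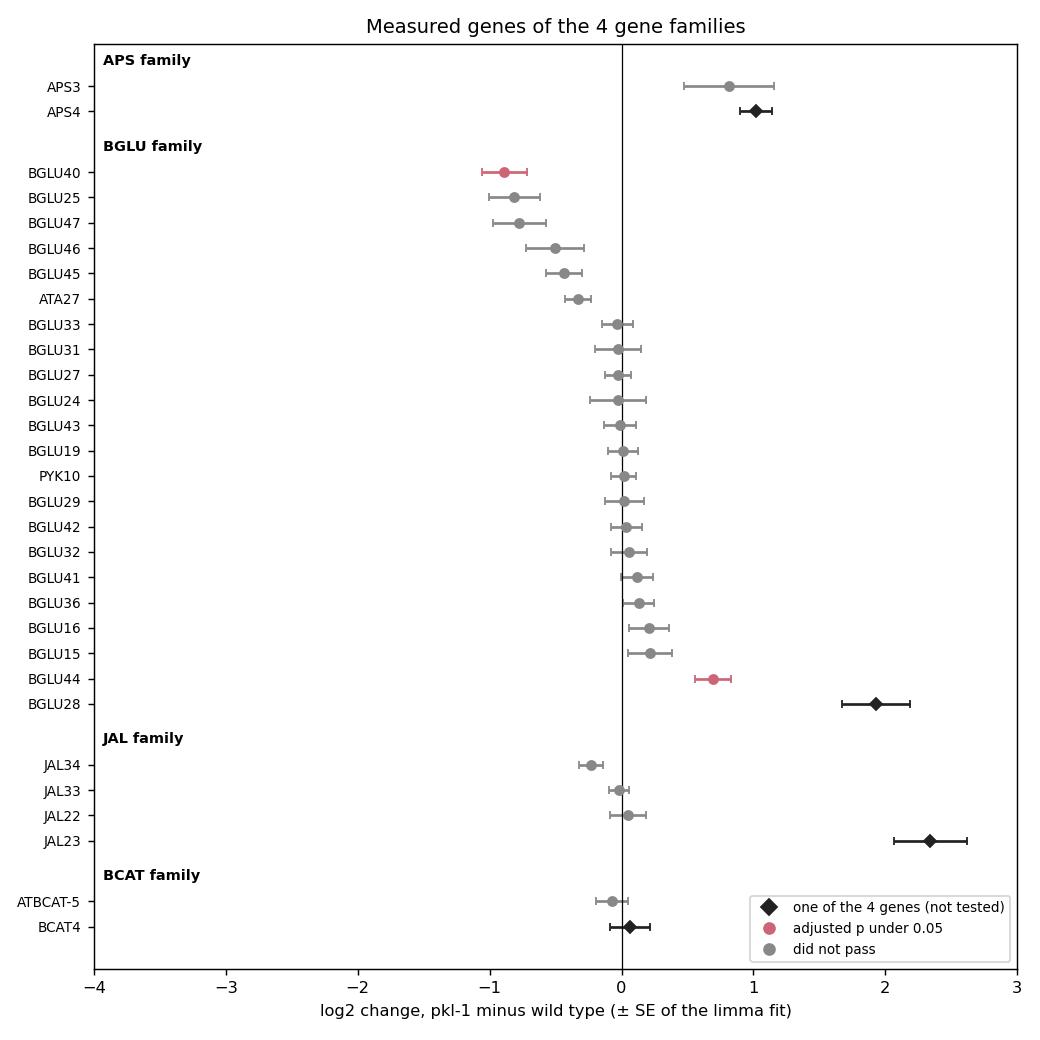
Log2 change, pkl-1 minus wild type, with its standard error, of the measured APS, BGLU, JAL and BCAT genes, marked as black diamonds for the 4 genes chosen, red circles for a limma adjusted p under 0.05 and grey circles for genes that did not pass. BGLU28 at 1.93 and JAL23 at 2.34 lie above their measured paralogs, which range between -0.89 and 0.70. The 4 genes were chosen by their values in this comparison, so their place among the paralogs carries no test.

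The 5 nearest measured genes on each side of the 4 genes were read from the gene order of the TAIR10.1 annotation, 40 in all. None passed in the limma fit, which called 2.01% of probe sets with 1 gene. An unadjusted p under 0.05 was found for 2 of the 40, beside 14.89% of all probe sets. Their changes ran from -0.60 to 0.45 log2 units with a median of 0.03. BGLU28 lies between 2 genes of its own family. BGLU15, the next gene on one side, was at 0.21 ± 0.17 log2 units (SE; limma adjusted p = 0.627), and BGLU29, 2 genes away on the other, was at 0.02 ± 0.15 (0.969), with dim signals of 1.51 in wild type and 1.53 in pkl-1. JAL22 lies 2 genes from JAL23, and between them AT2G39320 was at 0.17 ± 0.13 (limma adjusted p = 0.633). On the other side the nearest measured gene, AT2G39360, was at 0.11 ± 0.30 (0.914).

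The genes next to APS4, AT5G43770 and AT5G43790, were at 0.02 ± 0.13 and 0.33 ± 0.22 log2 units (SE; limma adjusted p = 0.962 and 0.557). ARD4, named after its values were seen, lies 8 genes from APS4 and encodes an acireductone dioxygenase of methionine salvage. It had the most negative difference of the 40, at -0.60 ± 0.22 (limma adjusted p = 0.260), with levels of 9.89, 9.38 and 9.22 in wild type and 9.32, 8.69 and 8.68 in pkl-1 and slightly overlapping groups. Beside BCAT4, the receptor kinase gene IKU2 and AT3G19740 were at 0.10 ± 0.15 and 0.08 ± 0.11 (limma adjusted p = 0.827 and 0.792).

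**Figure D5:**
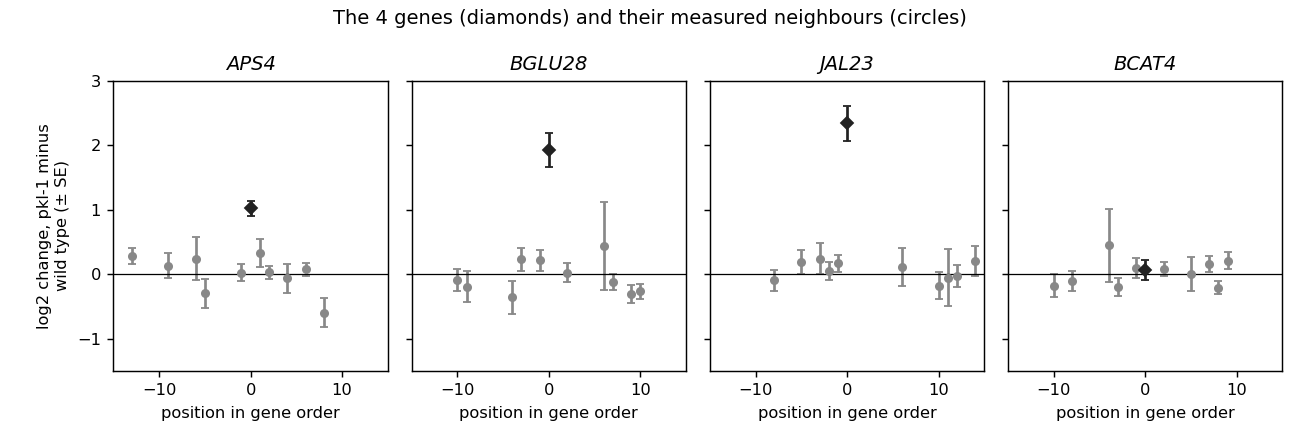
Log2 change, pkl-1 minus wild type, with its standard error, of each of the 4 genes (black diamond at position 0) and of the 5 nearest measured genes on each side (grey circles), placed by gene order. The neighbours lie between -0.60 and 0.45, below APS4 at 1.02, BGLU28 at 1.93 and JAL23 at 2.34. The 4 genes were chosen by their values in this comparison, so their place among the neighbours carries no test.

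The genes whose levels ran most like those of the 4 over the 6 arrays were found by Pearson's r among 13512 other probe sets with 1 gene, as a description, since the genotype difference alone sets much of r. For APS4 these were AT1G78750, AT5G08200 and AT5G26270 (r of 0.9979, 0.9955 and 0.9954), and 144 probe sets had an r of at least 0.95. AT1G78750 had levels of 1.99, 1.78 and 1.60 in wild type and 3.60, 3.27 and 3.16 in pkl-1, the same order of arrays as APS4. For JAL23 they were AT1G52720, AT5G48960 and AT1G73110 (r of 0.9968, 0.9950 and 0.9938), with 86 at 0.95 or more. AT1G52720 had levels of 7.34, 7.77 and 7.64 in wild type and 8.81, 8.69 and 8.89 in pkl-1, with replicate 1 lowest in wild type and replicate 2 lowest in pkl-1, as in JAL23.

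For BGLU28 the likest genes were nad1, which encodes a mitochondrial NADH dehydrogenase subunit, AT1G31850 and AT5G04730 (r of 0.9930, 0.9903 and 0.9899), with 74 at 0.95 or more. Their differences, 0.43, 0.23 and 0.81 log2 units, were all smaller than the 1.93 of BGLU28, and nad1 and AT1G31850 did not pass (limma adjusted p = 0.171 and 0.357). The signals of nad1 and AT5G04730 were dim, with wild-type means of 2.33 and 1.66 and pkl-1 means of 2.76 and 2.46. For BCAT4 they were AT1G65020, AT1G56230 and AT5G52420 (r of 0.9968, 0.9967 and 0.9961), with 55 at 0.95 or more. These 3 had differences of 0.07 to 0.11 log2 units and shared with BCAT4 its spread between arrays of a genotype.

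Since whole seedlings were measured, fewer cells of a type and less RNA per cell cannot be told apart. Of the 2 measured leaf markers LHCB4.2, which encodes a light-harvesting protein, fell by 0.50 ± 0.09 log2 units (SE; limma adjusted p = 0.0355) and RCA, Rubisco activase, was at -0.04 ± 0.06 (0.845). The call of LHCB4.2 was lost without pkl-1 replicate 2 or without any 1 wild-type array (limma adjusted p 0.0753 to 0.122), and with no trend in the prior (0.111). The mean level of the 2 was 12.93 to 13.01 on the wild-type arrays and 12.62 to 12.80 on the pkl-1 arrays. That gap came from LHCB4.2, at 12.72 to 12.76 in wild type and 12.03 to 12.38 in pkl-1, whereas the RCA groups overlapped. The mean of the 3 root markers, PYK10 included, was 6.58 to 7.01 on wild-type and 6.48 to 6.96 on pkl-1 arrays, and none passed. It joins the bright PYK10, at 0.02 ± 0.09, to 2 far dimmer genes. EXPA7 had wild-type and pkl-1 means of 3.89 and 3.56, and EXPA18 of 4.75 and 4.58. Their differences were -0.33 ± 0.28 and -0.17 ± 0.25 log2 units (SE; limma adjusted p = 0.657 and 0.820), with overlapping groups. The part of leaf and root shares in the levels of APS4, BGLU28 and JAL23 was not tested.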

How the data were processed

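RNA of 6 whole-seedling samples, 3 per genotype, was measured on Affymetrix arrays. The deposited values are 1 log2 signal per probe set and array, for which the authors used GCRMA, per the submitters' processing notes. Its version and the genome build were not given in the sources used here. The log2 scale was inferred from their range of 0.597 to 13.7. Of 22810 probe sets, 64 controls were left out. The platform table paired 13513 with 1 gene and 503 with several, which stay unnamed, and 8730 were unnamed here. Symbols came from the TAIR10.1 gene table, which had a locus for 13436. Its coordinates are not printed, since the build of the array's annotation is unnamed. For a gene with several probe sets, the one of highest mean was used.

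The 2-sided comparison of pkl-1 with wild type used limma 3.58.1 under R 4.3.3, with lmFit and eBayes (trend in the prior variance), Benjamini-Hochberg adjustment over all 22746 probe sets and a threshold of 0.05. Errors of differences are moderated standard errors of that fit (median 0.156). The labels call the arrays of a genotype biological replicates without naming separate plants or plates, so p-values measure the spread between these samples. The precision is limited by the number of arrays. The fit was also run on simulated data, whose outcome is not given here. Their noise was independent between arrays, so they cannot speak for an effect shared by replicates.

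The 4 genes and the lists were chosen with earlier results of these data known. The genes named are the 4, up to 4 rises and 4 falls of each list with at most the 2 brightest genes that did not pass, the APS and BCAT genes, called and 3 brightest BGLU and JAL genes, called and nearest neighbours, and the 3 likest genes of each of the 4. Organ markers and ARD4 were named in addition. Alternatives were other moderation, a filter on probe sets whose mean was below 3 log2 units, quantile normalization, median centring, weights per array, a block for the replicate number, dropping each array in turn and an adjusted p under 0.01. A planned promoter motif search was not run, as no sequences were used here. The plots come from matplotlib 3.10.9 under Python 3.11.15.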

Additional observations from a re-analysis of the deposited data

How the results depend on the processing

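With 1 array left out, the difference ran from 0.93 to 1.11 log2 units for APS4, 1.75 to 2.20 for BGLU28 and 2.08 to 2.58 for JAL23, and under quantile normalization, median centring and array weights from 1.01 to 1.04, 1.87 to 1.93 and 2.25 to 2.34. That of BCAT4 ran from -0.06 to 0.17 with 1 array left out, turning negative on leaving out pkl-1 replicate 1 (-0.0635) or replicate 3 of wild type (-0.0586). Changed probe sets numbered 540, and 470 to 652 under other moderation, filter, scaling and weights, 123 to 303 with any 1 of the 6 arrays left out and 111 at an adjusted p under 0.01; fewer arrays and a lower threshold call fewer. The count of changed pathway genes was 1 in each of these settings, and AT2G25450 passed in each (limma adjusted p 0.00347 to 0.0399), with 0.00628 in the fit reported. The 2 changed paralogs became 0 with no trend in the prior and 0 to 1 with 1 array left out. No neighbour passed in any of these settings. Averaging the probe sets of a gene alters nothing for the 4 genes and the measured pathway genes, which have 1 each.

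A block for the replicate number gave 1518 changed probe sets, with 4 pathway genes (APS3, GTR1 and AT2G31790 beside AT2G25450; limma adjusted p = 0.0271, 0.0162 and 0.0301), 4 paralogs (APS3 and BGLU25, at 0.0119, beside BGLU40 and BGLU44) and 1 neighbour (ARD4, 0.00558); of the thiol list SRX (0.0183), MSRB5 (0.0226) and MSRB6 (0.0433) passed too. No label ties equal numbers to a common batch. Same-numbered arrays, each taken minus its genotype mean, correlated at 0.49, -0.02 and 0.58 for replicates 1, 2 and 3. Replicate 1 of one genotype and replicate 3 of the other correlated at -0.51 and -0.56, and the other unlike-numbered arrays at -0.09 to 0.10. Deviations within a genotype cancel out, so these values are not independent of one another. The fit reported left the arrays unpaired because no label names a shared batch, and an effect shared by equal numbers was not tested. The cause of the higher counts was not tested.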
